A study of Mus musculus with 11 samples.

Results

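The 8 Langerhans cell (LC) identity genes Cd207, Epcam, Itgax, Ly75, Mfge8, Csf1r, Cd1d1 and Ptprc were followed in the gingival epithelium of 11 langerin-DTR mice at 8 weeks of age. They were taken by gene name from the table of normalized counts, in which all 8 have values, among 19170 genes with values and 55414 genes listed. In both groups every animal had a diphtheria toxin (DT) receptor driven by the langerin gene, and the toxin kills any cell that makes langerin, not LCs alone. Injections of DT (6 mice) or PBS (5 mice) were made at 17, 24 and 31 days of age, in the weaning period, and the epithelium was taken in adulthood, weeks after the last injection. From flow cytometry, the paper reports that gingival LCs were absent during weaning after DT and regained normal frequencies by the age sampled here. The series holds no library from the time without LCs, so its values cannot show a return of LC transcripts. The comparison of DT with PBS addresses only whether these transcripts differed in adulthood. The variation from mouse to mouse shows whether they moved together. The labels number the libraries within each group and name neither litters nor pooling of tissue, and each library is called a mouse here.

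LCs are the antigen-presenting cells of stratified epithelia. They sit between keratinocytes, sample antigen with their dendrites and carry it to the lymph nodes, and in oral mucosa they are replenished from circulating precursors that acquire langerin inside the epithelium. Langerin, encoded by Cd207, is a C-type lectin that binds mannose-containing glycans and forms the Birbeck granule. EpCAM, encoded by Epcam, is an adhesion molecule of LCs and also of many epithelial cells. Itgax encodes CD11c, the integrin chain of dendritic cells, and Ly75 encodes DEC-205, an endocytic receptor that delivers antigen for presentation. Mfge8 encodes a secreted protein that bridges apoptotic cells to phagocytes, and it is also made by non-immune cells. Csf1r encodes the receptor for CSF1 and IL-34, the latter being the keratinocyte-derived cytokine on which epidermal LCs depend. Cd1d1 encodes a molecule that presents lipids to NKT cells, and Ptprc encodes CD45, which is carried by all leukocytes.

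The 250 bases before the RefSeq start site are shown for 4 of the genes: Cd207, which drives the toxin receptor in these mice, the 2 genes whose transcripts followed it most closely (Epcam and Itgax), and the pan-leukocyte gene Ptprc. They were taken from RefSeq on GRCm38.p6, where 6 of the 8 genes matched, and are written 5′ to 3′ on the strand of the gene. Capitals mark matches to 3 motifs of factors that act in LCs and other myeloid cells, searched on both strands. These are AP-1 (TGANTCA), RUNX (TGTGGT or ACCACA) and PU.1 (GAGGAA or TTCCTC), and no match overlapped another. The windows are Cd207 at chr6:83677858-83678107, Itgax at chr7:128129300-128129549, Epcam at chr17:87635729-87635978 and Ptprc at chr1:138175306-138175555.
Cd207: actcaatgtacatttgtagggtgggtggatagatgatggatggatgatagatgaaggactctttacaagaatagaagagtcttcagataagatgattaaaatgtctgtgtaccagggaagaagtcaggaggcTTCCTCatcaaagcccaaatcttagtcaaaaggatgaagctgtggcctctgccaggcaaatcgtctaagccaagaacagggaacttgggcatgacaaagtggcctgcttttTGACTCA
Itgax: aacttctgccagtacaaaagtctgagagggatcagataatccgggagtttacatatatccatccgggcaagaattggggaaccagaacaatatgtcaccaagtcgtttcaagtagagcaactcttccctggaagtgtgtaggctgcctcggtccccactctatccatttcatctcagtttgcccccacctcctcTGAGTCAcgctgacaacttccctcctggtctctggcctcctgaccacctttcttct
Epcam: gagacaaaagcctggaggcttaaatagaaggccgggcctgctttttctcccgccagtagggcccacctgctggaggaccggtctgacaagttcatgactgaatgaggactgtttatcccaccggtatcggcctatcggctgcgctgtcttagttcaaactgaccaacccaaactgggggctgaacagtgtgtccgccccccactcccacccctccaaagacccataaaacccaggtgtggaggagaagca
Ptprc: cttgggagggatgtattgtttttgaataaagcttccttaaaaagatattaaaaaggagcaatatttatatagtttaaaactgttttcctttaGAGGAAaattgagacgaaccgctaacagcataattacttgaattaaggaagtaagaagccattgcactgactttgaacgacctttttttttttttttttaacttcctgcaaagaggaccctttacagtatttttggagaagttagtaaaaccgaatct

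Cd207 held the AP-1 match TGACTCA directly before the start, at bases -7 to -1, and the PU.1 match TTCCTC at bases -118 to -113. Itgax held the AP-1 match TGAGTCA at bases -56 to -50, and Ptprc the PU.1 match GAGGAA at bases -158 to -153 of its first listed start. A second RefSeq start of Ptprc, whose window is not printed, had no match to the 3 motifs. None of the 3 motifs occurred in the window of Epcam. Outside the printed set, Ly75 held the RUNX match TGTGGT at bases -200 to -195, and Mfge8 held TGTGGT at -76 to -71 and TTCCTC at -220 to -215. These letters are common: the AP-1 motif occurred in 6.75% of 32851 windows of the same length, the RUNX motif in 14% and the PU.1 motif in 23.3%. No factor binding was measured here.

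On GRCm38, Cd207 lies on the minus strand of chromosome 6 from 83671215 to 83677857 and Ptprc on the minus strand of chromosome 1 from 138062861 to 138175708. Epcam lies on the plus strand of chromosome 17 from 87635979 to 87651129. Chromosome 7 holds both Itgax, on the plus strand from 128129547 to 128150657, and Mfge8, on the minus strand from 79133768 to 79149060. Ly75 is on the minus strand of chromosome 2 from 60292103 to 60383303, and Csf1r on the plus strand of chromosome 18 from 61100598 to 61132149. Cd1d1 is on the minus strand of chromosome 3 from 86995834 to 86999441. Its near-identical copy Cd1d2 lies 6053 bases away, from 86986551 to 86989780. It is listed without a value, and the authors dropped genes with under 10 reads in all. The values do not show how reads matching both copies were counted, so the level of Cd1d1 is uncertain. The values are counts per gene and do not tell its exons or transcripts apart.

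The genes with values held 17509328 to 24325513 reads per mouse, or 19991333 to 20748076 normalized counts. PBS 3 and PBS 5 stood apart from the other libraries on the first principal component, which held 36.0% of the variance of the 500 most variable genes, at 17.2 and 20.9, with PBS 1, PBS 2 and PBS 4 between -13.0 and -11.9 and the DT mice between -9.09 and 10.5. Results are therefore given with and without this pair of mice, an alternative chosen after the data were seen. The tissue carried the transcripts of a keratinizing epithelium: the 10 suprabasal keratinocyte markers summed to between 2640206 and 2928480 normalized counts per mouse. Of marker genes for other cells of the gingiva, the 6 fibroblast markers summed to between 1109 and 1594 normalized counts and the 5 endothelial markers to between 45.3 and 119.

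Transcripts of all 8 genes were detected in each of the 11 mice. Compared per kilobase of the longest principal transcript, the mean level over all mice was 325 ± 45.1 normalized counts per kilobase (SD, n = 11) for Epcam and 272 ± 63.5 for Mfge8. Far below them followed Cd1d1 with 22.5 ± 4.45 and Csf1r with 19.9 ± 6.06 normalized counts per kilobase. Cd207 had 13.7 ± 5.96, Itgax 12.3 ± 3.70, Ptprc 11.8 ± 4.01 and Ly75 7.90 ± 2.46 normalized counts per kilobase. Epcam was above Mfge8, and Mfge8 above Cd1d1, in 11 of 11 mice. The order was less firm lower down: Cd1d1 was above Csf1r in 9 mice, Csf1r above Cd207 in 9 and Ptprc above Ly75 in 9. Cd207 was above Itgax in only 6 of the 11 mice, and Itgax above Ptprc in 6, so these 3 genes had no fixed order. Dividing by length is apt for reads from whole transcripts, as the labels' library kit gives, whereas the study's methods cite a trimming guide for libraries of transcript 3′ ends, and which applies was not settled here. Without division by length, the mean over all mice was 20.9 normalized counts for Cd207, the lowest of the 8, then 40.9 for Ly75, 43.9 for Cd1d1, 49.9 for Itgax, 55.5 for Ptprc and 93.3 for Csf1r.

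Cd207, the langerin transcript, was at 15.8, 18.5, 32.2, 10.0 and 43.0 normalized counts in PBS 1 to PBS 5. In the 6 DT mice its lowest value was 15.8, its median 18.3 and its highest 21.6. The DT mice thus sat within the range of the PBS mice, below PBS 3 and PBS 5 and above PBS 4. PBS mice had a mean of 23.9 ± 13.4 (SD, n = 5) and DT mice one of 18.4 ± 1.99 (SD, n = 6), and the log2 fold change on the scale of log2(normalized count + 1), which understates changes of low genes, was -0.19 (standard error 0.30, 95% confidence interval -0.83 to 0.44, limma adjusted p = 0.853). This interval spans lower and higher levels after DT. These values rest on 11 to 41 reads per PBS mouse and 16 to 23 reads per DT mouse. Without PBS 5 the log2 fold change was 0.06, without PBS 3 it was -0.05, and without PBS 4 it was -0.44 (limma adjusted p = 0.548).

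Among the genes that mark the dendritic and migratory character of LCs, Itgax was at 49.8, 43.7, 86.5, 37.3 and 63.0 normalized counts in PBS 1 to PBS 5. After DT the lowest value was 35.3, the median 41.8 and the highest 58.3. PBS 3 and PBS 5 were again the highest mice, and the groups overlapped (log2 fold change -0.28, standard error 0.20, limma adjusted p = 0.641). Epcam was at 643, 626, 818, 565 and 809 normalized counts in PBS 1 to PBS 5. After DT it was lowest at 520, with a median of 646 and a highest value of 738. Its log2 fold change was -0.11 (standard error 0.10, 95% confidence interval -0.32 to 0.11, limma adjusted p = 0.742), the narrowest interval of the 8 genes. Without PBS 3 and PBS 5 the log2 fold changes of Itgax and Epcam were 0.02 and 0.06.

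Of the genes for antigen uptake, Ly75 was at 56.6, 36.0, 58.3, 41.0 and 54.6 normalized counts in PBS 1 to PBS 5. After DT its lowest value was 20.6, its median 35.3 and its highest 49.8. DT 2 was the only DT mouse above PBS 4, and PBS 1, PBS 3 and PBS 5 were above all DT mice. The log2 fold change of Ly75 was -0.56 (standard error 0.22, 95% confidence interval -1.03 to -0.09), with an unadjusted limma p of 0.0222 and an adjusted p of 0.334. Mfge8 was at 548, 563, 838, 550 and 785 normalized counts in PBS 1 to PBS 5. After DT its lowest value was 421, its median 479.7 and its highest 664. The PBS mice other than PBS 3 and PBS 5 lay close together, within the range of the DT mice. Its log2 fold change was -0.35 (standard error 0.13, 95% confidence interval -0.64 to -0.07, limma adjusted p = 0.313). Cd1d1 was at 45.3, 61.2, 30.2, 36.4 and 47.2 normalized counts in PBS 1 to PBS 5. After DT its lowest value was 37.3, its median 42.2 and its highest 53.9. This was the one gene for which PBS 3 was the lowest mouse, and the group means were alike, 44.1 ± 11.8 (SD, n = 5) and 43.7 ± 6.23 (SD, n = 6), with a 95% confidence interval of the log2 fold change from -0.37 to 0.40.

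Csf1r, the receptor through which LCs receive IL-34, was at 79.2, 115, 146, 79.2 and 130 normalized counts in PBS 1 to PBS 5. After DT its lowest value was 48.4, its median 81.7 and its highest 109. PBS 2, PBS 3 and PBS 5 were above all DT mice, whereas PBS 1 and PBS 4 lay near the DT median. The log2 fold change was -0.46 (standard error 0.20, 95% confidence interval -0.88 to -0.03, limma adjusted p = 0.397). Ptprc, the leukocyte gene, was at 50.9, 60.3, 92.5, 60.1 and 75.5 normalized counts in PBS 1 to PBS 5. After DT its lowest value was 23.2, its median 45.1 and its highest 65.5. DT 4 was the only DT mouse above PBS 2 and PBS 4, and DT 3 was the lowest mouse of all. Ptprc had the largest difference of the 8, with means of 67.9 ± 16.4 (SD, n = 5) and 45.2 ± 14.7 (SD, n = 6) and a log2 fold change of -0.62 (standard error 0.23, 95% confidence interval -1.10 to -0.13), an unadjusted limma p of 0.0168 and an adjusted p of 0.307. In such bulk tissue, fewer cells of a type and less RNA per cell cannot be told apart.

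**Figure D1:**
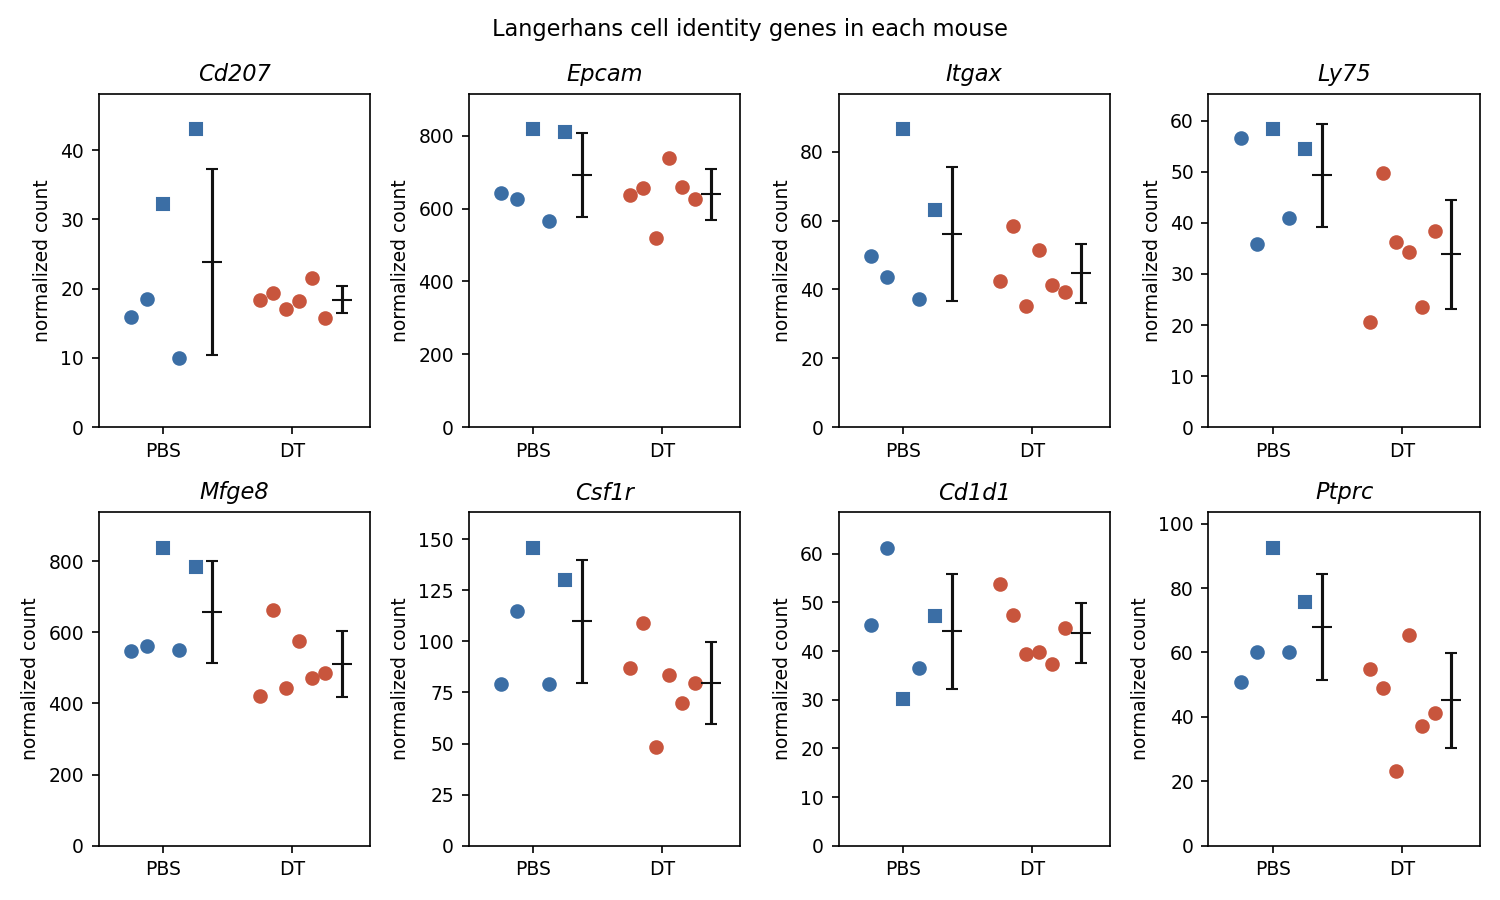
Normalized counts of the 8 identity genes in each mouse, with 1 point per mouse, PBS in blue and DT in red, and the mean ± SD of each group as a black bar. Squares mark PBS 3 and PBS 5, which were the 2 highest mice for 6 of the 8 genes, and no gene separated the groups without overlap.

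None of the 8 genes passed the adjusted p threshold of 0.1, which 0.558% of the 19170 tested genes did (107 genes, 60 higher and 47 lower after DT). At an unadjusted limma p under 0.05, 4 of the 8 were lower after DT (Ly75, Mfge8, Csf1r and Ptprc) and 0 were higher, where 6.19% of all tested genes were lower and 5.31% higher. The count at this level was 2 with quantile normalization, 1 with array weights, 2 and 1 with the replicate blocks, and 2 without DT 5. The log2 fold change was below 0 for 7 of the 8 genes, with a median of -0.32 against -0.01 over all genes tested. A lower mean after DT was shared by 52.7% of all genes, by 49.3% of the genes with a mean of 10 or more and by 62.5% of the genes with a mean of 10 to 200 normalized counts, the range in which 6 of the 8 lie. None of the 8 had groups without overlap, which 1.65% of all genes had. Without PBS 3 alone, and without PBS 3 and PBS 5, 0 of the 8 genes had an unadjusted limma p under 0.05. Without both, 1967 genes passed the adjusted threshold in all. The log2 fold change of Cd207 without both was 0.33 (95% confidence interval -0.20 to 0.86, limma adjusted p = 0.471), that of Ptprc -0.40 (limma adjusted p = 0.387) and that of Ly75 -0.42 (limma adjusted p = 0.372). Mfge8 moved from -0.35 to -0.13 (limma adjusted p = 0.535) and Csf1r from -0.46 to -0.21 (limma adjusted p = 0.604).

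**Figure D2:**
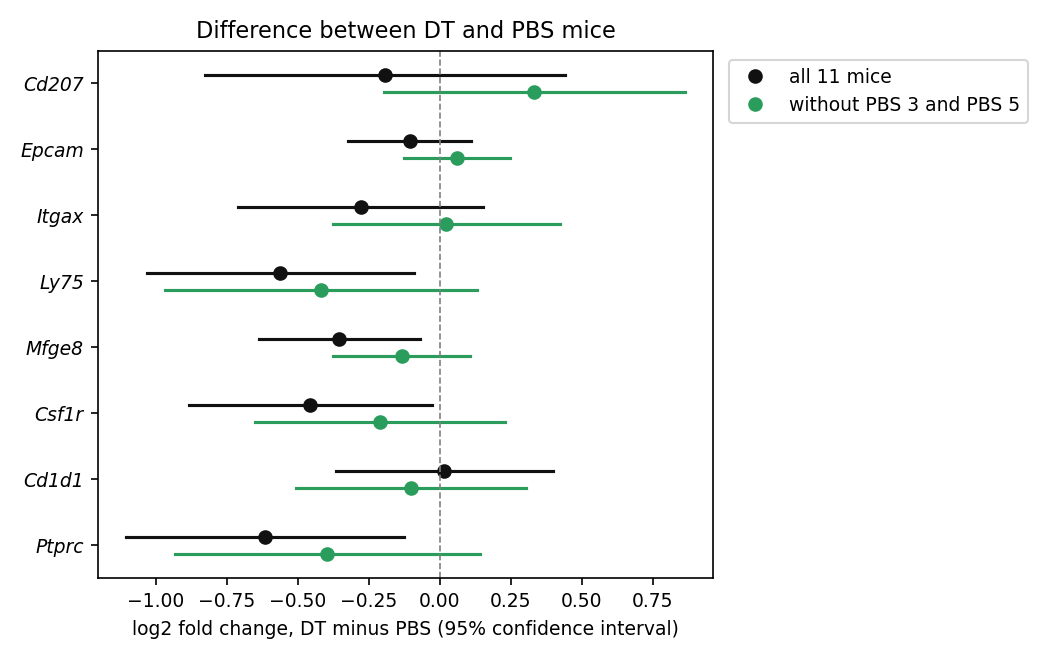
Log2 fold change of each gene, DT minus PBS, as a point with its 95% confidence interval from limma, in black for all 11 mice and in green without PBS 3 and PBS 5. Cd207 moved from -0.19 to 0.33 and Ptprc from -0.62 to -0.40, and without these mice every interval crosses 0.

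Cd207 varied far more among PBS mice than among DT mice. Its coefficient of variation was 56.2% after PBS and 10.8% after DT, where counting error alone would give 20.7% and 23.0%, so the spread of the DT mice was not above that of read counting. On the log2 scale the mean distance from the group median was 0.60 after PBS and 0.10 after DT (two-sided exact permutation test over all splits of the mice, p = 0.0346), a spread that was wider in PBS at this level for 1.71% of all genes and wider in DT for 1.32%. A smaller distance in DT, whatever its p, was found for 61.5% of all genes. Much of the wider spread of Cd207 in PBS came from PBS 3 and PBS 5 together. Without both, the difference in mean distance, DT minus PBS, was -0.17 (exact permutation p = 0.262). The log2 SDs were then 0.43 after PBS and 0.15 after DT. With only PBS 3 or only PBS 5 left out, the exact permutation p was 0.0571. It was 0.00476, the smallest p possible with 10 of the mice, without PBS 1, PBS 2 or PBS 4. When 1 DT mouse was left out, the difference in mean distance was -0.52 to -0.47, against -0.49 with all mice, and the exact permutation p 0.0635 to 0.103. For the other 7 genes the exact permutation p of the same comparison lay between 0.307 and 0.740. The p-values of this comparison were not adjusted over the genes, and the 0.0346 of Cd207 is the lowest of them. The wider spread of Cd207 in PBS is thus a description of these mice and was not tested with such an adjustment. Ly75 and Ptprc had the opposite order of Cd207, with log2 SDs of 0.31 and 0.33 after PBS and 0.46 and 0.51 after DT, which did not pass the test.

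Across the 11 mice, Cd207 followed Epcam most closely, with a Pearson r of 0.80 (permutation p = 0.00423, adjusted over the 7 relations p = 0.0296) and a Spearman rho of 0.73 (permutation p = 0.0145, adjusted p = 0.0721). Itgax came next, with r of 0.73 (permutation p = 0.0121, adjusted p = 0.0423) and rho of 0.70 (permutation p = 0.0206, adjusted p = 0.0721). The r of Cd207 was 0.65 with Mfge8 (permutation p = 0.0285, adjusted p = 0.0665; rho 0.50, permutation p = 0.122, adjusted p = 0.213) and 0.61 with Csf1r (permutation p = 0.0469, adjusted p = 0.0820; rho 0.62, permutation p = 0.0473, adjusted p = 0.110). With Ptprc it was 0.42 (permutation p = 0.190, adjusted p = 0.266; rho 0.39, permutation p = 0.236, adjusted p = 0.331) and with Ly75 0.29 (permutation p = 0.389, adjusted p = 0.454; rho 0.12, permutation p = 0.735, adjusted p = 0.735). With Cd1d1 it was -0.06 (permutation p = 0.861, adjusted p = 0.861; rho 0.13, permutation p = 0.713, adjusted p = 0.735). The relations of Cd207 with Epcam and Itgax thus passed 0.05 after adjustment by r but not by rho. Whether r differed between the 7 genes was not tested. Epcam is also a gene of many epithelial cells and stood at 325 normalized counts per kilobase against 13.7 for Cd207. How much of its transcript came from LCs was not measured.

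These relations rest on PBS 3 and PBS 5, which are also the 2 mice farthest from the median Cd207 value of 18.3. Over the other 9 mice, r with Cd207 was 0.48 for Epcam, 0.40 for Itgax, 0.12 for Csf1r and -0.08 for Mfge8. It was -0.22 for Ptprc, -0.38 for Ly75 and 0.33 for Cd1d1, and the lowest adjusted permutation p of the 7 relations was 0.671. Without PBS 3 alone or PBS 5 alone, r with Epcam was 0.75 and 0.73 (adjusted permutation p = 0.0879 and 0.101). The relation with Itgax missed the threshold in 7 of the 11 sets that each left out 1 mouse, while that with Mfge8 passed it without PBS 4 (adjusted permutation p = 0.0396) and that with Csf1r without DT 3 (adjusted permutation p = 0.0407). Within the 6 DT mice, given as a description, r was 0.37 for Epcam and 0.37 for Itgax, 0.21 for Mfge8 and for Csf1r, 0.16 for Ptprc, -0.23 for Cd1d1 and -0.35 for Ly75. Cd207 itself spans a range of only 15.8 to 21.6 normalized counts in these mice, so little variation was there to be followed.

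**Figure D3:**
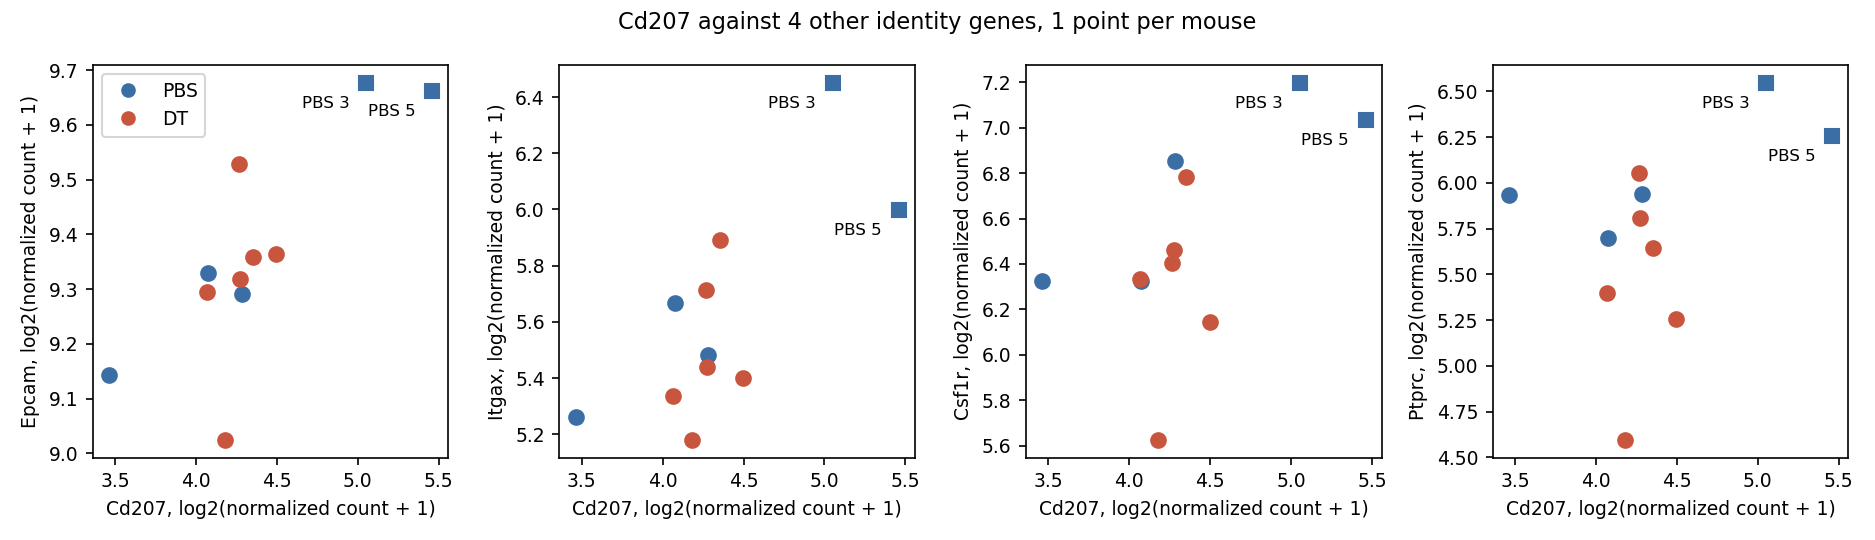
Cd207 on the horizontal axis against Epcam, Itgax, Csf1r and Ptprc, each as log2(normalized count + 1), with 1 point per mouse (PBS blue, DT red, PBS 3 and PBS 5 as labelled squares). PBS 3 and PBS 5 lie at the upper right of every panel, and r with Epcam is 0.80 over all 11 mice and 0.48 without them.

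Among all 8 genes, the pairs were also less alike without these mice. Over 28 pairs the median r was 0.63 with all 11 mice, and 16 pairs reached 0.6. Without PBS 3 and PBS 5 the median was 0.39 and 8 pairs reached 0.6. The highest r over all mice was 0.89, between Itgax and Mfge8, and it was 0.74 over the 9 mice. Ptprc and Csf1r were at 0.88 and, over the 9 mice, at 0.79, the highest of the 28 pairs there. Cd1d1 had r between -0.28 and 0.11 to the other 7 genes over all mice. Over the 9 mice its r was 0.67 with Csf1r, 0.34 with Ptprc and between -0.06 and 0.33 with the other genes. PBS 3 and PBS 5 were the 2 highest mice for 6 of the 8 genes, all but Ly75 and Cd1d1, which was so for 7.49% of the 13477 genes whose mean was 10 normalized counts or more. DT 3 was the lowest mouse for 4 genes, Epcam, Itgax, Csf1r and Ptprc.

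**Figure D4:**
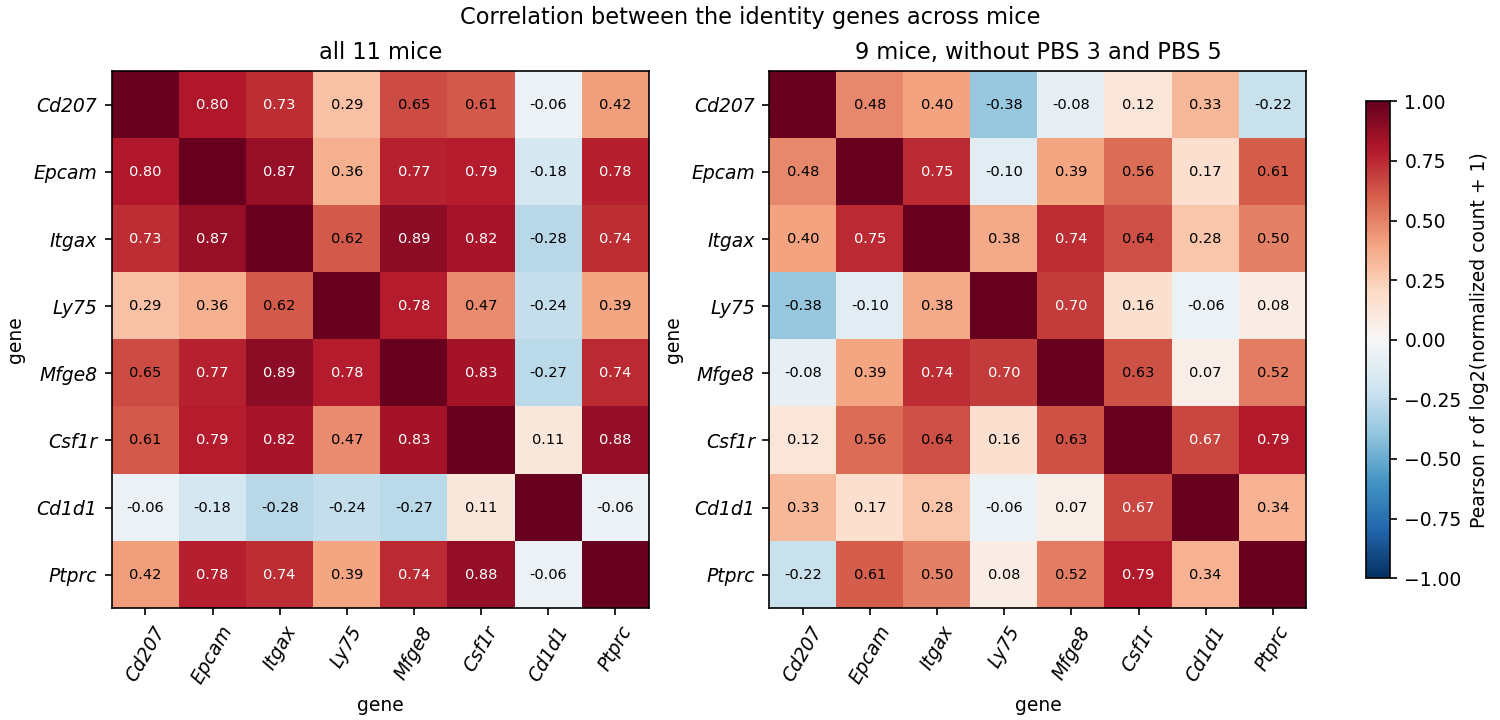
Pearson r between each pair of the 8 genes on log2(normalized count + 1), across all 11 mice on the left and across the 9 mice without PBS 3 and PBS 5 on the right, with red for positive and blue for negative r. The median over the 28 pairs is 0.63 on the left and 0.39 on the right, and Ptprc with Csf1r is at 0.79 on the right.

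Read against the other 13476 genes whose mean was 10 normalized counts or more, the LC genes were not the closest companions of Cd207. By r over the 11 mice, Epcam ranked 454th (3.37% of genes), Itgax 874th (6.49%) and Mfge8 1479th. Over the 9 mice Epcam ranked 2856th, Itgax 3490th and Mfge8 7505th. With all mice 1901 genes (14.1%) had r of at least 0.6, as did 14.2% over the 9 mice. The 5 genes most like Cd207 were Selenow (0.97), Stard10 (0.96), Ltbr (0.96), Aprt (0.95) and Bckdk (0.95), with means from 567 to 3190 normalized counts in the groups and r of 0.88 to 0.94 over the 9 mice. Ltbr encodes the lymphotoxin beta receptor, Aprt an enzyme of purine salvage and Bckdk the kinase of branched-chain keto acid dehydrogenase. The genes with r of at least 0.6 to Cd207 had a median transcript length of 1.87 kilobases against 2.94 over all genes and a median GC content of 53.2% against 50.3%, and Cd207 had r of 0.86 with the first principal component (0.59 over the 9 mice). The part of length, GC content and this component in the relations of Cd207 was not tested.

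Ptprc ranked its companions otherwise. Csf1r was 25th of the 13476 genes by r with Ptprc (0.186%), Epcam 132nd, Mfge8 200th and Itgax 213th. Cd207 was 1874th, Ly75 2122nd and Cd1d1 7274th. Over the 9 mice Csf1r was 125th, Epcam 602nd, Mfge8 1098th and Itgax 1168th. Cd1d1 was 2498th there, Ly75 5628th and Cd207 9320th. Fewer genes, 738 (5.48%), had r of at least 0.6 with Ptprc, and 4.7% did over the 9 mice. The 5 most like it were Adam19 (0.96), Parvg (0.95), Csf2rb (0.95), AU020206 (0.95) and Wdfy4 (0.93), and each kept r of at least 0.93 over the 9 mice. Csf2rb encodes the shared beta chain of the GM-CSF receptor, and Parvg and Wdfy4 are known from leukocytes, with Wdfy4 acting in cross-presentation by dendritic cells. Ptprc had r of 0.42 with the first principal component and -0.14 over the 9 mice.

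The langerin transcript was next set against the leukocyte and CD11c transcripts of the same mouse, as a difference of log2 values. Relative to Ptprc, Cd207 was at -1.62, -1.65, -1.49, -2.47 and -0.80 in PBS 1 to PBS 5, and between -1.79 and -0.42 in the DT mice. PBS mice had a mean of -1.61 ± 0.60 (SD, n = 5) and DT mice one of -1.19 ± 0.51 (SD, n = 6), a difference, DT minus PBS, of 0.42 (two-sided exact permutation test, p = 0.227, smallest possible p = 0.00216). Relative to Itgax, the means were -1.31 ± 0.48 (SD, n = 5) and -1.22 ± 0.25 (SD, n = 6), a difference of 0.085 (exact permutation p = 0.716). Cd207 per leukocyte or CD11c transcript was therefore not shown to be lower after DT, and both differences were above 0. Without PBS 3 and PBS 5 the differences were 0.73 (exact permutation p = 0.107) and 0.31 (exact permutation p = 0.143), where the 84 splits allow no p below 0.0119.

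**Figure D5:**
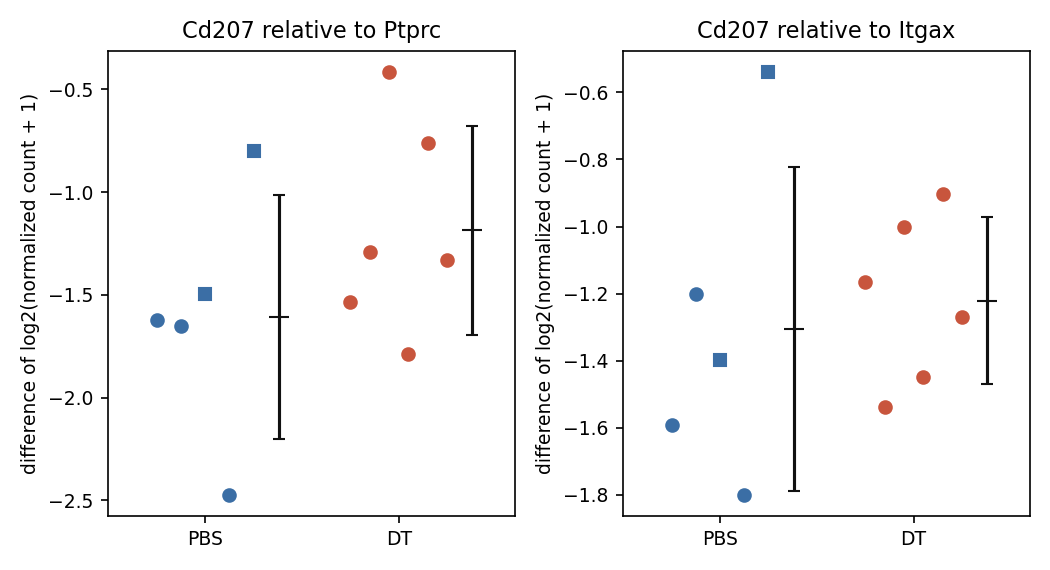
Cd207 relative to Ptprc (left) and to Itgax (right) as the difference of log2(normalized count + 1) within each mouse, with PBS in blue, DT in red, PBS 3 and PBS 5 as squares, and the mean ± SD of each group as a black bar. The groups overlap in both panels, and PBS 5 is the highest PBS mouse in each.

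Genes of the LC programme outside the 8 were read from lists. Of 14 transcription factors and TGF-beta family genes of LCs, 0 passed the adjusted threshold, and 3 were lower and 0 higher after DT at an unadjusted limma p under 0.05, with a median log2 fold change of -0.23. Of all tested genes 0.558% passed the adjusted threshold, and 6.19% were lower and 5.31% higher at this unadjusted level. Runx3, a factor required for LCs, had means of 30.8 ± 7.22 (SD, n = 5) and 18.6 ± 5.51 (SD, n = 6) normalized counts and a log2 fold change of -0.73 (limma adjusted p = 0.250). Batf3, a factor of dendritic cells, was at or below 3.15 normalized counts in every mouse. Of 17 genes for growth factors, chemokines and adhesion, 0 passed the threshold, with 2 lower and 1 higher at the unadjusted level. Csf2rb, already met beside Ptprc, had means of 38.9 ± 10.4 (SD, n = 5) and 19.6 ± 7.77 (SD, n = 6) normalized counts and a log2 fold change of -1.02 (limma adjusted p = 0.196). Ccr6, the receptor for CCL20, which draws LC precursors into epithelium, had 5.87 ± 2.73 (SD, n = 5) and 2.12 ± 1.66 (SD, n = 6) normalized counts and a limma adjusted p of 0.283.

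The 12 MHC class II and costimulation genes, which LCs share with other antigen-presenting cells, summed to between 1921 and 4964 normalized counts after PBS and between 1369 and 2853 after DT. PBS 3 was the highest and DT 3 the lowest mouse, as for Itgax, Csf1r, Epcam and Ptprc. PBS 3 and PBS 5 summed to 4964 and 3995 normalized counts. PBS 1, PBS 2 and PBS 4 summed to 2229, 2497 and 1921, within the range of the DT mice. The fold changes that follow include PBS 3 and PBS 5, and those without this pair are not given here. Of the 12 genes 11 had a log2 fold change below 0, with a median of -0.39, and 2 were lower at an unadjusted limma p under 0.05 while 0 passed the adjusted threshold. Of all tested genes, 52.7% had a log2 fold change below 0 and 6.19% were lower at that unadjusted level. It was below 0 for 49.3% of genes with a mean of 10 or more normalized counts and 62.5% of those from 10 to 200. Cd74, the invariant chain, had a log2 fold change of -0.50 (limma adjusted p = 0.409), and Ciita, the master regulator of class II genes, -0.57 (limma adjusted p = 0.412).

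Markers of other leukocytes, which share Ptprc, Itgax or Csf1r with LCs, were read in the same mice. Of 10 genes for other dendritic cells 7 have values, and Clec9a, Clec10a and Clec4a4 are listed without one. Xcr1, which marks cross-presenting dendritic cells, was at or below 2.73 normalized counts in every mouse and at 0 in 5 of the 6 DT mice. Itgae, which encodes the CD103 of dendritic and intraepithelial T cells, had means of 42.3 and 26.5 normalized counts after PBS and DT (log2 fold change -0.70, standard error 0.33, limma adjusted p = 0.436). The 12 macrophage and monocyte genes summed to between 7376 and 8903 normalized counts after PBS and between 7260 and 9162 after DT, with 0 genes under an unadjusted limma p of 0.05. Over all tested genes 11.5% were under it, in either direction. The highest sum of this list was in DT 3, which was the lowest mouse for Ptprc (23.2 normalized counts) and Csf1r (48.4). The sum therefore need not follow the content of macrophages, and which genes and cells carried it was not tested. Cx3cr1, the fractalkine receptor, had 20.0 ± 10.5 (SD, n = 5) and 11.1 ± 4.66 (SD, n = 6) normalized counts (limma adjusted p = 0.493). The 9 T cell genes with values, of 13, summed to between 34.6 and 108 after PBS and between 35.3 and 63.3 after DT, and the constant-region genes Trac, Trbc1, Trbc2 and Trdc are listed without values. B and plasma cell genes (5 of 7 with values) summed to at most 63.7 and NK and innate lymphoid genes (5 of 6) to at most 500.5 normalized counts. Neutrophil genes (5 of 7) summed to between 698 and 3397 after PBS and between 681 and 3721 after DT, and mast cell genes (3 of 5) to between 270 and 396 and between 171 and 303. None of the genes of these 7 lists passed the adjusted threshold, and the part of such cells in the values of Ptprc, Itgax and Csf1r was not tested.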

How the data were processed

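RNA from the gingival epithelium of 11 mice was made, per the labels, into poly(A)-selected stranded libraries, while the study's methods cite a trimming guide for 3′-end (QuantSeq) libraries. The authors trimmed the reads, aligned them with TopHat, counted them per gene with htseq-count, dropped genes with under 10 reads in all and scaled each mouse by its DESeq2 size factor, so that the deposited values are normalized counts per gene and mouse. The study's methods name GRCm38 and the submitters' processing notes GRCm39 for these steps, and the build was not settled here. Positions come from GENCODE M21 on GRCm38, in which 19117 of 19170 genes (99.7%) matched by identifier.

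Differences were fitted with limma 3.58.1 (R 4.3.3, intensity trend) on log2(normalized count + 1) over all 19170 genes and 11 mice without covariates, with Benjamini-Hochberg adjustment and a threshold of 0.1. Exact permutation tests were two-sided and used every way to split the mice 5 against 6, and correlations used 100000 permutations and a threshold of 0.05 after adjustment over 7 relations. Whole reads were recovered from the steps of the values and were used for depth and counting error only. The genes and lists were chosen with earlier results of these data known. Named beside the 8 genes are, of the lists described, at most the 2 genes with the smallest p (none passed the threshold), and the 5 genes most like Cd207 and Ptprc by r. TMM and quantile scaling, pseudocounts of 0.5 and 5, a minimum mean of 10, array weights, replicate blocks and leaving out each mouse were tried. The p-values measure the spread between these mice.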

Additional observations from a re-analysis of the deposited data

Results flagged for a closer look

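Among 58 groups of values checked (the 8 genes, both Cd207 ratios and the summed marker lists, each in PBS and in DT), 1 held a mouse far from the others, where chance alone flags about 1 in 20 groups. The salivary gland markers summed to 221 normalized counts in DT 5 against 70.1 to 117 in the other DT mice. Muc5b alone held 210 of these counts in DT 5, and the sum was higher in PBS 2, at 254. For none of the 8 identity genes did a single mouse stand apart from its own group by this measure.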

How the results depend on the processing

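None of the 8 genes was called in any of the 20 alternative fits, whose lowest limma adjusted p for a member was 0.216. The number of genes called in all, 107, was 189 with array weights and 1967 without PBS 3 and PBS 5, and it ranged from 27 (without DT 5) to 259 (without PBS 5) when 1 mouse was left out, and only leaving out PBS 3 (126) or DT 2 (82) moved it by under 1.5 times. With a replicate block it was 35 for the number in the titles and 0 for the library number, where 1404 genes had an unadjusted limma p under 0.05. By title number, deviations of same-numbered mice correlated at 0.09, 0.17, -0.23, -0.21 and 0.32. Only PBS 5 correlated best with its own number, and DT 6 has no partner by title. By library number PBS 5 goes with DT 6, a pair whose correlation is not given here. Whether either number pairs the mice was not settled. A block gives the mouse without a partner (DT 6 by title, DT 5 by library number) no weight in the difference. With either block, 0 of the 8 genes passed the adjusted threshold, and 2 (titles) or 1 (library number) had an unadjusted limma p under 0.05, against 4 without it.

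Leaving out 1 mouse gave log2 fold changes of -0.44 to 0.055 for Cd207, -0.41 to -0.11 for Itgax, -0.18 to -0.042 for Epcam, -0.68 to -0.44 for Ly75, -0.43 to -0.26 for Mfge8, -0.56 to -0.32 for Csf1r, -0.73 to -0.44 for Ptprc and -0.11 to 0.14 for Cd1d1, and the last was also -0.051 with array weights and -0.10 without PBS 3 and PBS 5. Without both mice, the log2 fold change turned to 0.33 for Cd207, 0.060 for Epcam and 0.023 for Itgax. With Cd207, r without 1 mouse ranged from 0.73 to 0.90 for Epcam, 0.68 to 0.77 for Itgax, 0.49 to 0.77 for Mfge8, 0.50 to 0.71 for Csf1r, 0.26 to 0.60 for Ptprc, 0.091 to 0.39 for Ly75 and -0.28 to 0.28 for Cd1d1. Without PBS 3 and PBS 5 it was 0.48 for Epcam, 0.40 for Itgax, -0.38 for Ly75, -0.085 for Mfge8, 0.33 for Cd1d1 and -0.22 for Ptprc. Leaving out 1 mouse, the DT minus PBS difference of Cd207 relative to Itgax ranged from -0.038 to 0.28 and that relative to Ptprc from 0.21 (without PBS 4) to 0.62 (without PBS 5). The difference in spread ranged from -0.64 to -0.35 for Cd207 and from -0.11 to 0.042 for Mfge8. Without both mice it was -0.17 for Cd207, 0.040 for Epcam, 0.053 for Itgax, 0.17 for Mfge8 and 0.082 for Csf1r. The cause of these shifts was not tested. Quantile and TMM scaling, the other pseudocounts and the minimum mean changed no direction, and no call at the adjusted threshold, of the 8 genes. Count models (edgeR, DESeq2), planned for whole reads, were not run, and the recovered reads served only to describe depth and counting error. Cd207 rests on 11 to 41 reads per mouse. Its coefficient of variation was above counting error in PBS mice (56.2% against 20.7%) and below it in DT mice (10.8% against 23.0%). The part of depth in its interval was not tested.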
